A study of Rattus norvegicus with 64 samples.

Results

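The 8 genes examined here mark mast cells and were followed in the wall of rat urinary bladders reconstructed with a graft. They were Cpa3, Cma1, Tpsb2, Tpsab1, Ms4a2, Fcer1a, Hdc and Kit, chosen by name, and all 8 were on the array, where 9 of 30367 gene probes and 8 of 15715 named genes belonged to them. Fcer1a had 2 probes, of which the brighter stands for the gene. Every animal was a male syngeneic Wistar rat that underwent removal of part of the bladder and closure of the defect with about 1 cm2 of bladder acellular matrix (BAM), the sheet of bladder wall left after its cells are washed out. The graft was BAM only, or BAM on which adipose tissue-derived stromal cells had been seeded (ADSCs in the sample labels, here ASCs, and BAM+ASCs for the graft). The ASCs came from retroperitoneal fat of male Wistar rats aged 10 weeks and were used at passage 3. Bladders were harvested at 7, 30, 90 or 180 days, and the reconstructed wall was separated from native bladder before RNA was isolated. Each of the 8 groups of graft and day had 8 arrays, 1 bladder wall per array. The wall holds many cell types, so a mast cell gene is measured here in bulk RNA: fewer mast cells and less RNA of the gene per mast cell cannot be told apart.

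Mast cells are leukocytes of connective tissue and mucosa that keep ready-made mediators in granules. Cpa3 encodes carboxypeptidase A3, Cma1 a chymase, and Tpsab1 and Tpsb2 are tryptases, all of them granule proteases. Fcer1a and Ms4a2 encode the alpha and beta chains of the high-affinity IgE receptor, through which antigen triggers release of the granules. Hdc encodes histidine decarboxylase, which makes histamine, and Kit is the receptor for stem cell factor (Kitlg), on which mast cells depend for survival. In the bladder, mast cells lie in the lamina propria and between the bundles of detrusor muscle.

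The promoters of 5 members are shown because Cpa3, Cma1, Fcer1a and Hdc varied together between bladders and Tpsab1 joined them only in part. Each runs from 250 bases before to 50 after the annotated start, 300 bases in all, from RefSeq on the assembly GRCr8, written 5′ to 3′ along the gene. Capitals mark GATAA or its reverse complement TTATC, letters bound by GATA factors such as Gata2. Cpa3 lies at chr2:104673188-104673487 (minus strand), Cma1 at chr15:33390084-33390383 (minus), Fcer1a at chr13:88224630-88224929 (minus), Hdc at chr3:134318655-134318954 (minus) and Tpsab1 at chr10:14867253-14867552 (minus).
Cpa3: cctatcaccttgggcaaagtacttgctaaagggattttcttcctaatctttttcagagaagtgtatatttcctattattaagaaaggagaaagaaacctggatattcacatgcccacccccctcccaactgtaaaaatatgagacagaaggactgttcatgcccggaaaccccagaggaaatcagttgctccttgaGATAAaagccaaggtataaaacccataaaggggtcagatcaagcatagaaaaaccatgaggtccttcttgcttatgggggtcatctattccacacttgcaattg
Cma1: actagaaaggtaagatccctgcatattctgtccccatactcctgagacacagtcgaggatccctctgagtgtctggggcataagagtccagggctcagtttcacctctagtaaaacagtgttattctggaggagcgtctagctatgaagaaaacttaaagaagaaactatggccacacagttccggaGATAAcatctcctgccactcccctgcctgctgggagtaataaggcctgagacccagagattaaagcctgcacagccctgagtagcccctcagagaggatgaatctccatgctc
Fcer1a: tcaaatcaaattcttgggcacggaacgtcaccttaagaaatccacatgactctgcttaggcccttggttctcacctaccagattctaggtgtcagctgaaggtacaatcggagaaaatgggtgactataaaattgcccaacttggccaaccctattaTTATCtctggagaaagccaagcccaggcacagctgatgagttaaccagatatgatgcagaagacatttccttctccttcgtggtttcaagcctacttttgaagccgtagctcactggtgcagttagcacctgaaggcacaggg
Hdc: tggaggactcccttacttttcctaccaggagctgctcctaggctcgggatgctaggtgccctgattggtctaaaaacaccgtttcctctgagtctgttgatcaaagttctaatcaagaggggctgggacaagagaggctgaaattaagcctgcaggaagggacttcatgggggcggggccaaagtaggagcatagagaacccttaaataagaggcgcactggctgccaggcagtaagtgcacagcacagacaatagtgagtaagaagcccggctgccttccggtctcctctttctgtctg
Tpsab1: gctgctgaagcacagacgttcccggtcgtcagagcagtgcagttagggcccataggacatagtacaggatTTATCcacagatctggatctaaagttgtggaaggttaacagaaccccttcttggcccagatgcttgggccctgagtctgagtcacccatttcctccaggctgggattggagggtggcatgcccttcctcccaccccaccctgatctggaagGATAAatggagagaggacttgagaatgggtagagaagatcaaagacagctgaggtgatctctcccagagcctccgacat
The promoter table held 7 of the 8 members. The window held GATAA in Cpa3 and Cma1, TTATC in Fcer1a and both in Tpsab1, 4 members in all, and neither in Hdc, Tpsb2 or Kit. Of 33469 rat promoters of the same length, 26.5% held GATAA or TTATC on either strand, so the letters are common and a match is a description only. Tpsab1 and Tpsb2 are neighbours on chromosome 10, Cma1 lies on chromosome 15 among the Mcpt mast cell proteases, and Kit lies on chromosome 14 between Kdr and Pdgfra.

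Levels are log2 of the processed signal of a probe minus the 75th percentile of its array, so that they compare arrays and not genes. The defining genes of the labelled tissue were present: Upk1a, Upk1b and Upk3a of urothelium and Acta2, Myh11 and Des of smooth muscle were well above background on 8 of 8 arrays of every group. Far more spots stood clear of background on the early arrays (7 and 30 days, 73.3% to 95.6% of gene spots per array) than on the late arrays (90 and 180 days, 35.5% to 64.6%). Every slide carried a single group, so slide and group cannot be told apart, and early and late slides were not scanned on the same day. The lowest signal well above background lay at levels from -8.73 to -6.52 on the early arrays and from -6.38 to -2.31 on the late ones. At 90 days its median was -5.22 in BAM only and -6.04 with BAM+ASCs, and at 180 days -4.76 and -5.63. Over all probes the median difference of BAM+ASCs minus BAM only was -0.16, 0.11, -0.27 and 0.06 at 7, 30, 90 and 180 days, and near 0 after quantile normalization. With dim probes left out the median difference at 90 days was 0.06. On 2 arrays most members were low: in BAM+ASCs at 30 days replicate 8 they averaged 1.55 less than the group's other arrays on the log2 scale (mean level -4.43 against -2.88, 7 of 8 genes lower), and in BAM+ASCs at 90 days replicate 3 the mean level was -5.10 against -3.09, with 7 of 8 genes lower. Both arrays were also lower than the rest of their group in pan-leukocyte genes, by -0.79 and -2.71 (8 of 8 genes lower on each), and higher in urothelial genes, by 0.82 and 1.27, and the part of this in the members' levels was not tested. In BAM+ASCs at 90 days replicate 7, Tpsb2 alone stood at 1.01 where the next array was at -3.31.

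The 8 genes were not equally well measured. Cma1 was well above background on 62 of 64 arrays, Cpa3 on 56, Tpsb2 on 50, Hdc on 48, Kit and Tpsab1 on 45, Fcer1a on 43 and Ms4a2 on 33. No member probe was saturated. The spread between bladders of the same group was wide for most of them, with a pooled within-group SD of 0.93 for Fcer1a, 0.89 for Ms4a2, 0.86 for Hdc and Tpsab1, 0.79 for Cma1, 0.73 for Cpa3, 0.72 for Tpsb2 and 0.55 for Kit on the log2 scale. The median over named genes was 0.46, and the SD of Fcer1a stood at percentile 89.7 of them.

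**Figure D1:**
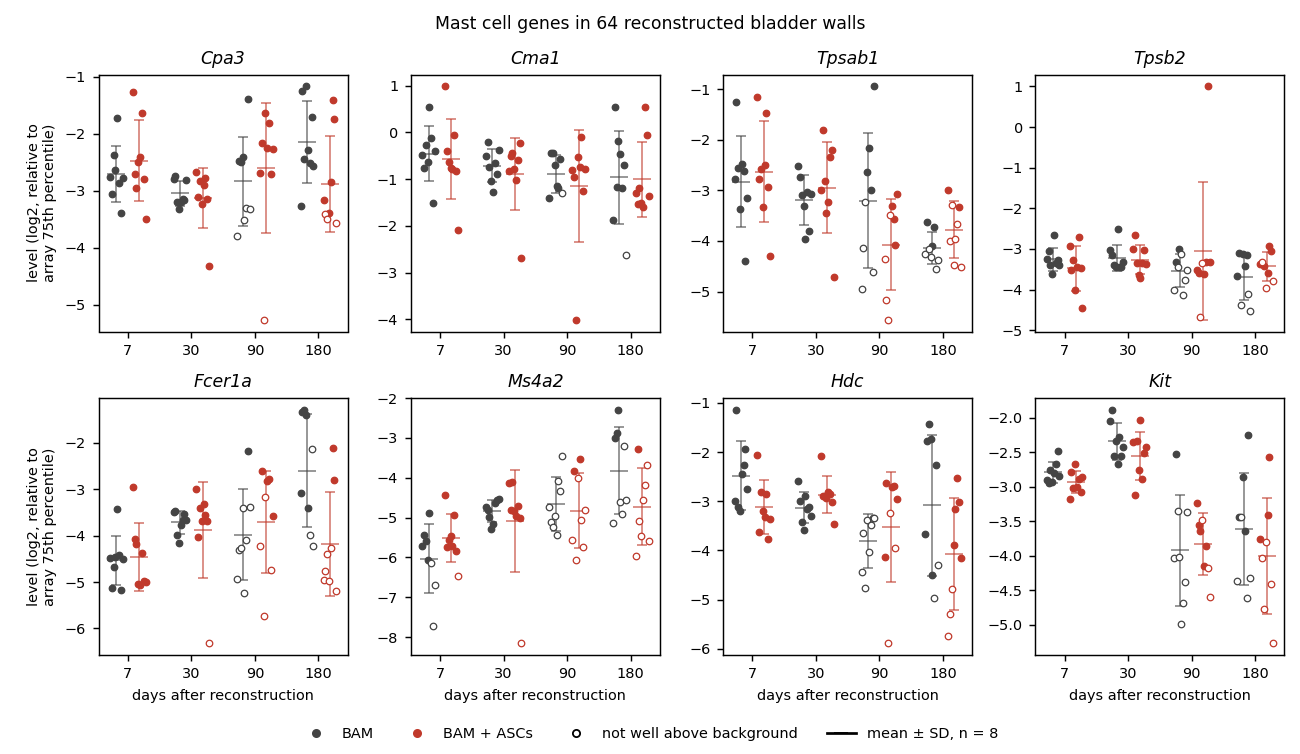
Level of each of the 8 mast cell genes (log2 signal minus the array's 75th percentile) by day after surgery, 1 point per bladder wall, BAM only in black and BAM+ASCs in red, with open points for arrays where the probe was not well above background and bars for mean ± SD (n = 8). Kit has lower group means at 90 and 180 than at 7 and 30 days in both grafts, and Fcer1a in BAM only at 180 days, between -4.22 and -1.28, holds the highest values of that gene.

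Among the granule proteases, Cma1 and Cpa3 kept much the same level through all 8 groups. In bladders with BAM only, Cma1 (lowest, median and highest level, here and for the genes that follow, with BAM+ASCs listed in the same order of days) was at -1.51, -0.44 and 0.54 (7 days), -1.27, -0.70 and -0.21 (30 days), -1.41, -0.92 and -0.44 (90 days) and -2.62, -0.94 and 0.54 (180 days). Cma1 with BAM+ASCs was at -2.09, -0.70 and 0.99, then -2.68, -0.68 and -0.23, then -4.01, -0.80 and -0.10, then -1.60, -1.34 and 0.55. The 8 ranges overlapped one another. Cpa3 in BAM only was at -3.39, -2.77 and -1.73 (7 days), -3.31, -3.15 and -2.74 (30 days), -3.79, -2.90 and -1.39 (90 days) and -3.27, -2.37 and -1.17 (180 days). In the seeded grafts Cpa3 was at -3.49, -2.61 and -1.26, then -4.32, -3.01 and -2.67, then -5.26, -2.26 and -1.64, then -3.57, -3.27 and -1.41. The group means of Cpa3 ran from -3.12 ± 0.52 (SD, n = 8; BAM+ASCs at 30 days) to -2.15 ± 0.72 (BAM only at 180 days), and neighbours in that order differed by less than their SDs.

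The tryptases were well above background on 8 of 8 arrays of each early group and on fewer arrays of the late groups. Tpsab1 in BAM only was at -4.40, -2.70 and -1.25 (7 days), -3.96, -3.08 and -2.52 (30 days), -4.95, -3.10 and -0.94 (90 days) and -4.56, -4.20 and -3.62 (180 days), where 3 of 8 arrays were well above background. Seeded grafts gave -4.31, -2.68 and -1.16, then -4.72, -2.91 and -1.80, then -5.56, -3.82 and -3.06, then -4.51, -3.82 and -2.99, with 2 of 8 arrays well above background. Tpsab1 was thus at its lowest medians at the late days in both grafts, apart from BAM only at 90 days. Tpsb2, its neighbour on the chromosome, had group medians between -3.54 and -3.30, and its ranges overlapped in all 8 groups.

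The alpha and beta chains of the IgE receptor had their highest group level with BAM only at 180 days. Fcer1a in BAM only was at -5.17, -4.49 and -3.44 (7 days), -4.16, -3.67 and -3.47 (30 days), -5.23, -4.19 and -2.18 (90 days) and -4.22, -2.61 and -1.28 (180 days). In walls with BAM+ASCs the level was -5.07, -4.67 and -2.95, then -6.32, -3.62 and -3.00, then -5.73, -3.38 and -2.61, then -5.19, -4.57 and -2.12. At 180 days 5 of 8 arrays of BAM only and 2 of 8 of BAM+ASCs were well above background. Ms4a2 in BAM only was at -7.73, -5.88 and -4.87 (7 days), -5.28, -4.77 and -4.54 (30 days), -5.43, -4.84 and -3.44 (90 days) and -5.13, -3.89 and -2.29 (180 days). The beta chain with BAM+ASCs was at -6.46, -5.63 and -4.43, then -8.15, -4.82 and -4.10, then -6.06, -4.94 and -3.52, then -5.95, -4.82 and -3.27. The receptor's beta chain was close to background on the late arrays, where 0 of 8 arrays of BAM only at 90 days and 3 of 8 at 180 days measured it well.

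Hdc, the enzyme of histamine synthesis, was at -3.19, -2.59 and -1.13 in BAM only at 7 days, -3.58, -3.14 and -2.59 (30 days), -4.77, -3.57 and -3.33 (90 days, on no array well above background) and -4.97, -2.97 and -1.44 (180 days). Hdc in seeded grafts was at -3.77, -3.26 and -2.06, then -3.46, -2.89 and -2.07, then -5.89, -3.10 and -2.63, then -5.74, -4.03 and -2.52. The range at 180 days was the widest of the BAM only groups for this gene. Kit, the stem cell factor receptor, was at -2.95, -2.82 and -2.49 in BAM only at 7 days, -2.68, -2.38 and -1.88 (30 days), -4.99, -4.03 and -2.53 (90 days) and -4.61, -3.54 and -2.25 (180 days). Its level with BAM+ASCs was -3.18, -2.94 and -2.67, then -3.12, -2.47 and -2.03, then -4.60, -3.75 and -3.24, then -5.27, -3.92 and -2.57. Kit varied little between bladders at 7 days (SD 0.15 and 0.17) and more at 180 days (0.81 and 0.83). It was well above background on 8 of 8 arrays of both grafts at 7 days, and on 4 and 3 of 8 at 180 days.

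The first comparison asks whether seeding the graft with ASCs changed the mast cell genes at a given day. A gene was counted as changed at a Benjamini-Hochberg adjusted p below 0.01 over all 30367 probes, from limma, with a fold change above 1.5. None of the 8 genes changed between the grafts at any of the 4 days. The share of all probes that changed was 7.71%, 1.67%, 12.4% and 2.42% from the first day to the last. At an unadjusted p under 0.05 the number of members was 0, 0, 1 and 4. Of all 30367 probes, 8852, 7827, 14495 and 4272 were under it. The median difference over the 8 genes was -0.02, -0.12, 0.16 and -0.56 in the same order.

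At 7 days the widest difference was that of Hdc, which was lower with BAM+ASCs by -0.64 on the log2 scale (95% confidence interval -1.49 to 0.21, adjusted p = 0.332, limma), and 4 of the 8 genes lay on either side of 0. The signs of Fcer1a, Ms4a2 and Tpsab1 at 7 days turned under another scaling or background correction, as did that of Ms4a2 at 90 days. At 30 days all 8 differences lay between -0.25 and 0.27. At 90 days Tpsab1 was lower with BAM+ASCs by -0.87 (interval -1.72 to -0.03, adjusted p = 0.0951), and Tpsb2 was higher by 0.49, which became -0.09 without BAM+ASCs replicate 7. The tryptases thus had opposite signs at that day only with this array included.

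At 180 days 6 of the 8 genes had a lower mean with BAM+ASCs, and the differences were widest for Fcer1a and Hdc. Fcer1a, the chain that binds IgE, was lower by -1.58 (SE 0.46, interval -2.49 to -0.66), which is 2.98-fold, at an adjusted p of 0.0249 that missed the threshold. Of the 8 bladders with BAM+ASCs, 6 were lower in Fcer1a than every bladder with BAM only. Its second probe was well above background on no array with BAM+ASCs and on 3 of 8 with BAM only. That probe was lower by -0.97 (interval -1.78 to -0.16, adjusted p = 0.205, limma). Hdc was lower by -0.99 (interval -1.84 to -0.14, adjusted p = 0.229), Ms4a2 by -0.90 (interval -1.78 to -0.02, adjusted p = 0.335) and Cpa3 by -0.72 (interval -1.44 to -0.01, adjusted p = 0.345). Kit was lower by -0.39 (adjusted p = 0.636) and Cma1 by -0.04 (interval -0.82 to 0.74), while Tpsab1 and Tpsb2 were higher by 0.36 and 0.25. None of these passed the threshold. Fcer1a passed it without BAM+ASCs replicate 6 (difference -1.87, adjusted p = 0.00487) or without BAM only replicate 8 (-1.81, adjusted p = 0.00878), and after normexp background correction the difference was -0.72 (adjusted p = 0.109). The same correction brought Hdc to -0.34, Ms4a2 to -0.39, Cpa3 to -0.46 and Kit to -0.04, while Cma1 went to -0.16. With quantile normalization Hdc, Ms4a2, Cpa3 and Kit differed by -1.19, -1.23, -0.84 and -0.40. The Ms4a2 probe stood clear of background in 1 of 8 seeded bladders and 3 of 8 of BAM only. The part of background in these differences was not tested. Of all probes, 0.0428% passed in the lower direction at this day and 2.38% in the higher. Of the pan-leukocyte genes 0 of 8 passed at this day, with a median difference of 0.23, and their mean level ran from -0.36 to 1.28 in BAM only and from -0.38 to 1.86 with BAM+ASCs.

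**Figure D2:**
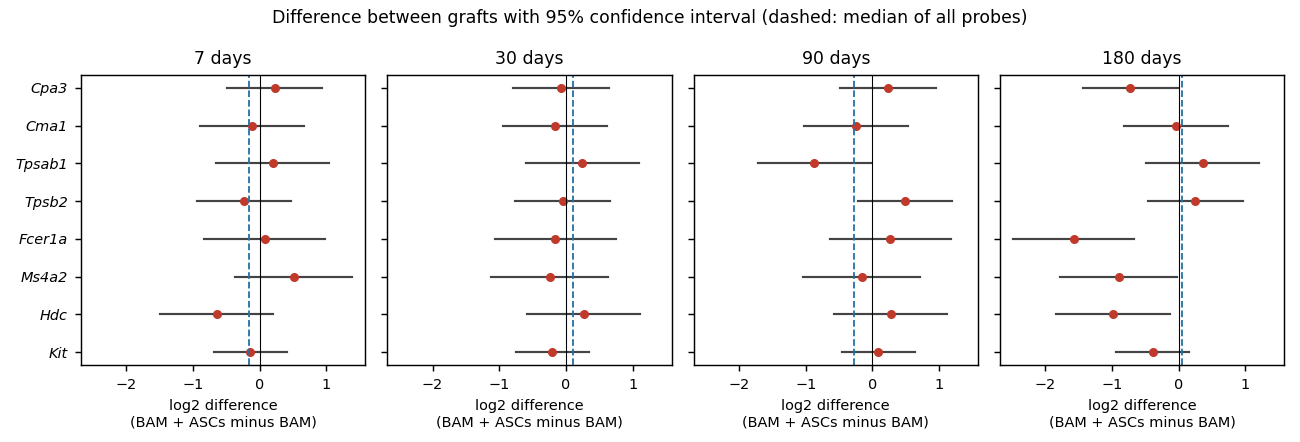
Difference in level (log2, BAM+ASCs minus BAM only) of the 8 mast cell genes at 7, 30, 90 and 180 days with the 95% confidence interval of the limma fit, and the median over all probes as a dashed line. None of the differences passed the threshold, and the widest is that of Fcer1a at 180 days, -1.58, with an interval from -2.49 to -0.66.

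Within the group of BAM only at 180 days the bladders differed widely, and several genes differed together. Fcer1a was at -3.08, -1.35, -1.28, -1.39, -3.40, -3.98, -2.14 and -4.22 in replicates 1 to 8. In the same bladders Ms4a2 was at -5.13, -3.01, -2.87, -2.29, -4.62, -4.90, -3.21 and -4.57, and Hdc at -3.67, -1.78, -1.44, -1.73, -4.50, -4.97, -2.27 and -4.30. Replicates 2, 3, 4 and 7 were the 4 highest for each of these genes. Cpa3, the carboxypeptidase, was at -3.27, -1.25, -2.44, -1.17, -2.29, -2.52, -1.71 and -2.57, and here replicate 3 was not among the 4 highest. With BAM+ASCs, Fcer1a was at -4.95, -4.76, -4.39, -4.99, -4.26, -2.12, -2.80 and -5.19, and replicates 6 and 7 stood above the rest. The mean over the 8 members was -2.36 and -2.76 in those bladders, against -4.18 in the lowest of the group.

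**Figure D3:**
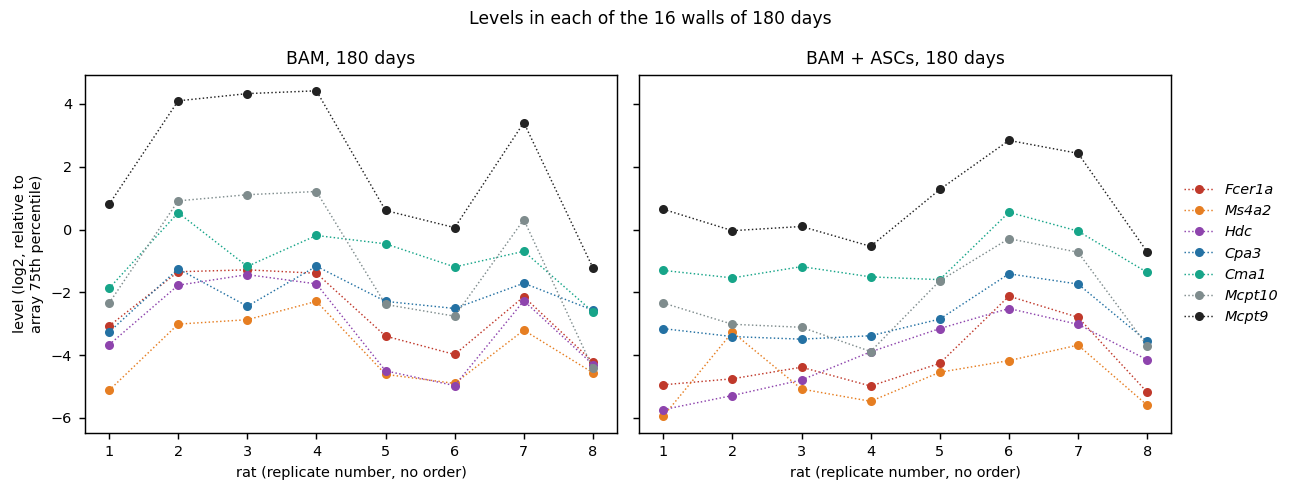
Levels (log2 signal minus the array's 75th percentile) of Fcer1a, Ms4a2, Hdc, Cpa3, Cma1, Mcpt10 and Mcpt9 in each of the 16 bladder walls of 180 days, BAM only and BAM+ASCs in separate panels, where the dotted lines only join the points of a gene, since replicate numbers have no order and offsets between genes carry no meaning. With BAM only, replicates 2, 3, 4 and 7 are high in Fcer1a, Ms4a2 and Hdc, and with BAM+ASCs replicates 6 and 7 are high in Fcer1a.

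Whether the difference between grafts itself changed from day to day was tested as a contrast of contrasts. None of the 8 genes passed. The share of all probes that passed was 0.985% for 30 against 7 days, 5.82% for 90 against 7, 8.44% for 180 against 7, 9.96% for 90 against 30, 2.48% for 180 against 30 and 9.75% for 180 against 90 days. Fcer1a came nearest. Its difference between grafts was lower at 180 than at 90 days by -1.85 on the log2 scale (SE 0.64, interval -3.14 to -0.56, adjusted p = 0.0331, limma), than at 7 days by -1.65 (adjusted p = 0.0711) and than at 30 days by -1.42 (adjusted p = 0.189). After quantile normalization the first of these passed the threshold (-2.46, adjusted p = 0.00548, limma). After normexp correction it was -0.99 (adjusted p = 0.0593).

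The second comparison followed the genes through healing within each graft. Between 7 and 30 days none of the 8 changed, with 8.63% of all probes changed in BAM only and 8.04% with BAM+ASCs. Ms4a2 was higher at 30 days in BAM only by 1.19 (adjusted p = 0.0462), and 5 of 8 bladders lay above all those of 7 days. This rise of Ms4a2 shrank to 0.02 with normexp correction (limma, adjusted p = 0.951) and to 0.84 with quantile normalization (adjusted p = 0.349). The Ms4a2 probe stood clear of background in 5 of 8 bladders at 7 days and 8 of 8 at 30 days. From 90 to 180 days none changed either, against 9.36% and 4.13% of all probes. Fcer1a was higher at 180 than at 90 days in BAM only by 1.37 (adjusted p = 0.0212), and it passed the threshold after quantile normalization (1.87, adjusted p = 0.00194). After normexp correction this difference was 0.84 (adjusted p = 0.0116, limma).

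Between 30 and 90 days Kit was the only member that passed, and it fell in both grafts. In BAM only, Kit fell by 1.58 on the log2 scale (SE 0.27, adjusted p = 1.467e-06, limma), 2.98-fold, and 7 of 8 bladders of 90 days were below all those of 30 days. After normexp correction that fall was -0.78 (adjusted p = 3.402e-04). With BAM+ASCs it fell by 1.28 (adjusted p = 1.038e-04), 2.43-fold, in 8 of 8. Of all probes 44.7% changed in BAM only over this interval and 28% with BAM+ASCs, of which 9.49% and 10.3% of all probes were lower. At 90 days Kit was well above background on 1 of 8 and 5 of 8 arrays. The interval spans the 2 scan days, and scan day and time cannot be told apart here. With BAM+ASCs the call was lost after quantile normalization (-0.98, adjusted p = 0.0102) and after normexp correction (-0.46, adjusted p = 0.0348). Over the same interval 7 of 8 pan-leukocyte genes fell in BAM only and 6 of 8 with BAM+ASCs, and their part in the fall of Kit was not tested. Their mean level per array lay between 2.39 and 2.91 at 30 days and between -1.18 and 2.06 at 90 days in BAM only, and between 1.13 and 2.37 and between -1.73 and 1.56 with BAM+ASCs. Tpsab1 with BAM+ASCs was lower at 90 than at 30 days by -1.13 (adjusted p = 0.0228, limma), and by -0.18 after normexp correction (adjusted p = 0.600).

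From 7 to 180 days 4 members changed in BAM only and 1 with BAM+ASCs, while 49.9% and 52.9% of all probes did. In BAM only the alpha and beta chains of the IgE receptor rose, against 34.3% of all probes that rose. Fcer1g, the gamma chain of the receptor, had a mean level of 4.70 at 7 days and 3.03 at 180 days in BAM only. Ms4a2 rose by 2.20 (adjusted p = 1.552e-05, limma) and Fcer1a by 1.93 (adjusted p = 1.974e-04), each with 6 of 8 bladders above all those of 7 days. The second probe of Fcer1a rose by 1.28 (adjusted p = 0.0046). After normexp correction the rises were smaller, 0.83 for Ms4a2 (adjusted p = 0.00104) and 1.103 for Fcer1a (adjusted p = 2.234e-04). Ms4a2 was well above background on 5 of 8 arrays at 7 days and 3 of 8 at 180 days, and the dimmest signal that counted as above background was higher on the late arrays. Kit fell in both grafts, by 0.82 in BAM only (adjusted p = 0.0067) and by 1.07 with BAM+ASCs (adjusted p = 4.803e-04), and Tpsab1 fell by 1.31 in BAM only (adjusted p = 0.005257). Of all probes 15.6% fell in BAM only and 10.9% with BAM+ASCs. With BAM+ASCs, Fcer1a differed by 0.28 (interval -0.63 to 1.19) and Ms4a2 by 0.79 (interval -0.09 to 1.67) between 7 and 180 days, and the difference of this change between grafts had an adjusted p of 0.0711 for Fcer1a and 0.116 for Ms4a2. After normexp correction the values with BAM+ASCs were 0.60 for Fcer1a (adjusted p = 0.0360) and 0.63 for Ms4a2 (adjusted p = 0.0101), and the change differed between grafts by -0.51 (adjusted p = 0.306) and -0.20 (adjusted p = 0.629). Tpsab1 with BAM+ASCs was lower by -1.15 (adjusted p = 0.0136, limma) and Hdc by -0.95 (adjusted p = 0.0421). After normexp correction these were -0.40 (adjusted p = 0.168) and -0.11 (adjusted p = 0.707). The falls of Kit and Tpsab1 in BAM only were lost after normexp correction (Kit -0.42, adjusted p = 0.0550; Tpsab1 -0.71, adjusted p = 0.0243) and after quantile normalization, and that of Kit with BAM+ASCs after normexp correction (-0.21, adjusted p = 0.278).

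How the 8 genes varied together from bladder to bladder was measured over the 64 arrays as deviations from the group means. Of 28 pairs, 15 had a Pearson r with an adjusted permutation p below 0.05. All 10 pairs among Cpa3, Cma1, Ms4a2, Fcer1a and Hdc were among them, with r from 0.53 to 0.87. Cpa3 and Cma1, proteases stored in the same granules, had r = 0.87 and Spearman rho = 0.85 (n = 64, permutation p = 1e-05 for each, the smallest that 100000 permutations can give, adjusted p = 4.667e-05 and 5.6e-05). The r was 0.82 without the 2 arrays farthest from the median, 0.88 at 7 and 30 days and 0.88 at 90 and 180 days. Cpa3 and Fcer1a had r = 0.80 and rho = 0.74 (0.76 without the 2 arrays, 0.79 early and 0.80 late), and Ms4a2 and Fcer1a, the receptor's beta and alpha chains, had r = 0.76 and rho = 0.74 (0.72 without the 2 arrays, 0.82 early and 0.74 late), with the same permutation and adjusted p.

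The r of Hdc with the receptor was higher on the late arrays than on the early ones. Fcer1a and Hdc had r = 0.73 and rho = 0.71 over the 64 arrays (0.72 without the 2 farthest, permutation p = 1e-05, adjusted p = 4.667e-05), but r = 0.37 at 7 and 30 days (adjusted p = 0.0797, permutation test) and 0.85 at 90 and 180 days. The difference between these was not tested. At 90 and 180 days Fcer1a was well above background on 1 and 5 of 8 arrays in BAM only, and on 4 and 2 with BAM+ASCs. For Hdc these numbers were 0 and 6 in BAM only, and 5 and 5 with BAM+ASCs. For Ms4a2 they were 0 and 3, and 2 and 1. The part of background in the r of the late arrays was not tested. Within the early arrays 6 of the 10 pairs passed and within the late arrays 9 of 10. Without the 2 arrays on which most members were low, all 10 passed, with r from 0.40 to 0.81.

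The tryptases and Kit had lower r with these 5 genes. Tpsab1 correlated with Cma1 (r = 0.50, rho = 0.46), Ms4a2 (0.44 and 0.35), Cpa3 (0.36 and 0.32) and Fcer1a (0.31 and 0.30), with adjusted permutation p for r of 8e-05, 9.567e-04, 0.0169 and 0.0329, and r of 0.40, 0.32, 0.29 and 0.21 without the 2 farthest arrays. Its r with Cma1 was 0.80 on the early arrays and 0.30 on the late ones. Tpsb2 and Tpsab1 had r = 0.32 and rho = 0.46 (permutation test, adjusted p = 0.0216 and 4.356e-04, r = 0.44 without the 2 farthest arrays), and no other pair of Tpsb2 passed (r from -0.07 to 0.36 over its 7 pairs). That depended on 1 array: without BAM+ASCs at 90 days replicate 7, where Tpsb2 stood apart, Tpsb2 had r = 0.64 with Cma1 (adjusted permutation p = 5.6e-05), 0.55 with Cpa3 (1.292e-04), 0.54 with Tpsab1 (5.6e-05) and 0.36 with Fcer1a (0.0180), and these 4 pairs passed. For Kit none of 7 pairs passed, with r from -0.15 to 0.29. After quantile normalization 3 of them passed, with r = 0.41 for Cpa3 (adjusted permutation p = 0.00964), 0.43 for Fcer1a (0.0110) and 0.40 for Ms4a2 (0.0292), and without the 2 arrays on which most members were low Kit and Cpa3 passed (r = 0.37, adjusted permutation p = 0.0425). Kit is also made by interstitial cells and melanocytes, and its r with a list of 5 genes of those cells was 0.27 (rho = 0.26, n = 64, permutation p = 0.0364 and 0.0317, adjusted p = 0.287 and 0.515 over 36 relations, r = 0.30 without the 2 farthest arrays). In that family of 36 relations, Cpa3, Fcer1a and Kit with 12 other cell types, none passed.

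**Figure D4:**
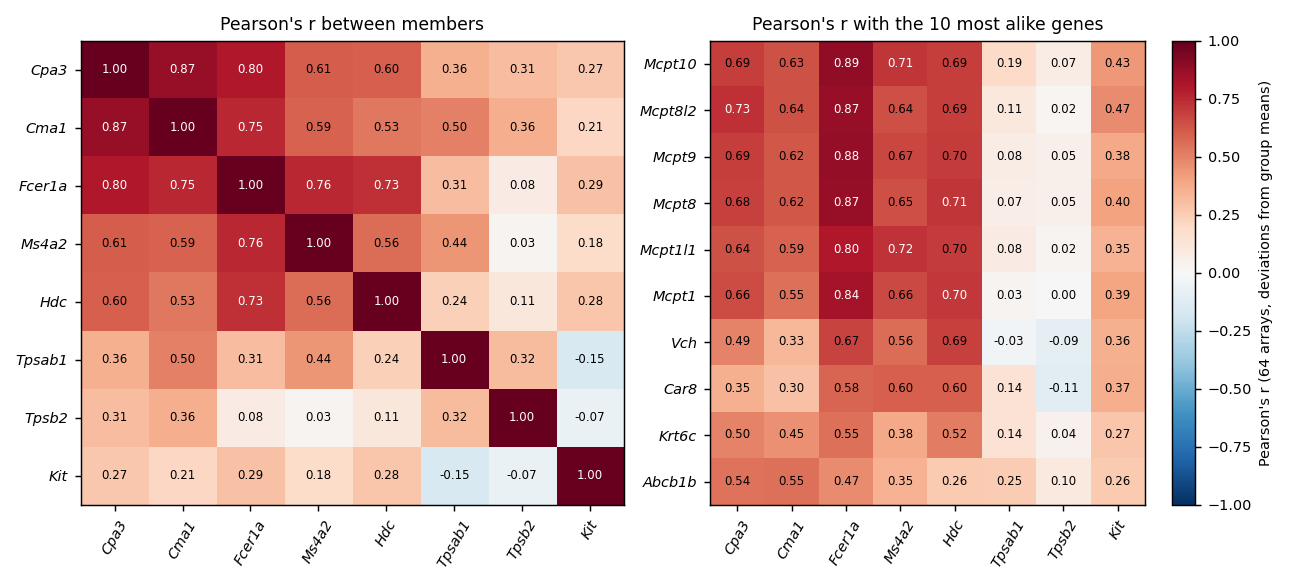
Pearson r over 64 arrays, as deviations from the group means, between the 8 mast cell genes (one heat map) and between them and the 10 named genes most like their mean (the other), on a colour scale of r. Cpa3, Cma1, Ms4a2, Fcer1a and Hdc form a block with r from 0.53 to 0.87, while Kit has r from -0.15 to 0.29 with the others, higher for Cpa3, Fcer1a and Ms4a2 after quantile normalization.

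The genes most like the mean of the 8 members were looked for among 11160 named genes, and r is given as a description. The first 6 were all mast cell or basophil proteases of the Mcpt family: Mcpt10 (r = 0.79), Mcpt8l2 (0.76), Mcpt9 (0.75), Mcpt8 (0.74), Mcpt1l1 (0.72) and Mcpt1 (0.71). After them came Vch, a vascular chymase (0.55), Car8 (0.53), Krt6c (0.52) and Abcb1b (0.50). The likeness was closer on the late arrays than on the early ones for Mcpt10 (0.88 against 0.60) and Vch (0.74 against 0.16), and about equal for Mcpt1l1 (0.73 against 0.76). The Mcpt genes were most like Fcer1a, with r of 0.89 for Mcpt10, 0.88 for Mcpt9 and 0.87 for Mcpt8, and had r between 0.02 and 0.19 with either tryptase for these and Mcpt8l2. The Mcpt genes and Vch lie near Cma1 in 1 cluster on chromosome 15 and are related in sequence. Whether a probe of one takes up RNA of another was not tested, so single members are uncertain. Mcpt8 is also a gene of basophils.

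Mast cell and basophil proteases were then taken as a list of their own, of which 12 of 16 were on the array. None changed between the grafts at any day. At 180 days their median difference was -1.25, with Mcpt1 at -1.47 (interval -2.87 to -0.06, adjusted p = 0.321, limma), Mcpt9 at -1.31 (adjusted p = 0.290) and Mcpt10 at -1.29 (adjusted p = 0.347). Mcpt9 was at -1.22, 2.10 and 4.42 (lowest, median and highest) in BAM only at 180 days and at -0.71, 0.37 and 2.84 with BAM+ASCs, and Mcpt1 at -3.00, 1.00 and 3.48 against -2.53, -1.06 and 1.55. The groups overlapped, and the range in BAM only was the wider. The mean of the list in BAM only was highest in replicates 2, 3, 4 and 7 (-0.92, -0.43, -0.89 and -1.29), the bladders that were also high in Fcer1a, and lowest at -3.66. From 7 to 180 days 7 of the 12 rose in BAM only, where 34.3% of all probes rose, among them Mcpt1 by 2.92 (adjusted p = 2.557e-04), Mcpt9 by 2.35 (adjusted p = 5.903e-04) and Mcpt1l1 by 2.24 (adjusted p = 0.00179), and 1 fell. With BAM+ASCs, where 41.9% of all probes rose, 4 did so (Mcpt3, Mcpt4, Tpsg1 and Ctsg, which also rose in BAM only and were well above background on at most 4 of 8 arrays of a group at either day, while the dimmest signal above background was higher at the later day) and none fell, and Mcpt1 and Mcpt9 differed by 0.60 and 0.57 (adjusted p = 0.447 and 0.404). The difference between grafts was lower at 180 than at 90 days by -3.41 for Mcpt1 (adjusted p = 0.01002) and -2.66 for Mcpt9 (adjusted p = 0.0205), and neither passed.

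The signalling chain behind the IgE receptor is shared with other leukocytes. Of 17 genes, such as the kinase Syk, the adaptor Lat and the exchange factor Vav1, none changed between the grafts at 7, 30 and 180 days. At 90 days, when 12.4% of all probes changed, 2 of the 17 were lower with BAM+ASCs. From 7 to 180 days 14 fell in BAM only and 13 with BAM+ASCs, where 15.6% and 10.9% of all probes fell. Vav1 fell by 3.50 and 2.59, Syk by 2.84 and 2.16 and Lat by 2.82 and 2.25, over the same interval in which Fcer1a and Ms4a2 rose in BAM only. Of the pan-leukocyte genes 7 of 8 fell in BAM only and 8 of 8 with BAM+ASCs. Fcer1g, the gamma chain that the IgE receptor shares with other Fc receptors, fell in BAM only from 30 to 90 days by 1.24 (adjusted p = 5.355e-04, limma), and with BAM+ASCs differed by -0.61 (adjusted p = 0.103).

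Of the 8 genes of histamine handling, Slc18a2, the vesicular transporter that loads histamine into granules, was higher with BAM+ASCs at 90 days by 0.63 (adjusted p = 0.00165, limma) and lower at 180 days by -0.62 (adjusted p = 0.00714), and passed at both days. Its group means were -2.40 with BAM+ASCs against -3.03 (90 days) and -2.95 against -2.33 (180 days). Of all probes 12.4% changed between the grafts at 90 days and 2.42% at 180 days. The histamine receptors Hrh3 and Hrh4 were lower with BAM+ASCs at 90 days by -0.91 and -0.99, and none of the 8 changed at 7 or 30 days. At 90 and 180 days the median of the dimmest signal above background was higher in BAM only, and its part in these differences was not tested. Among 12 granule and secretion genes only Rab27b, a GTPase of granule release, differed between grafts, higher with BAM+ASCs at 30 days by 1.42 (adjusted p = 0.00217, limma), when 1.67% of all probes changed. From 7 to 180 days 7 of the 12 fell in each graft, and 2 rose in BAM only and 1 with BAM+ASCs. Of all probes 15.6% fell and 34.3% rose in BAM only, and 10.9% fell and 41.9% rose with BAM+ASCs. Ctsc, which activates granule proteases, fell by 1.85 in BAM only, and Srgn, the proteoglycan core of the granule, by 1.76.

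At 7 days, when 7.71% of all probes differed between the grafts and 5.6% were lower with BAM+ASCs, some cytokine and mediator genes of the lists were among them. Il6 was lower with BAM+ASCs by -2.20 (adjusted p = 0.00104, limma), Il1rl1, the receptor of the alarmin Il33, by -1.34 (adjusted p = 0.00308) and Il13 by -1.13 (adjusted p = 0.00979). These were among 4 of 19 growth, cytokine and transcription factor genes that were lower at that day. Of 10 genes of lipid mediators, Ptgdr2, a receptor of prostaglandin D2, and Ltc4s, leukotriene C4 synthase, were lower by -1.88 and -1.36 (adjusted p = 2.146e-07 and 2.204e-04). Enpp3, a surface marker of basophils and mast cells, was lower by -0.84 (adjusted p = 0.00153), the only one of 10 surface and activation genes. Other cell types differed at this day too, with Upk2 of urothelium higher by 2.87 and Lcn2 of neutrophils lower by -4.45 with BAM+ASCs, and their part in these differences was not tested. Basophil and eosinophil genes, 7 on the array, did not pass at any day.

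The ligand of Kit, the alarmin Il33 and the transcription factor Gata2 are partners and regulators of mast cells. Kitlg had mean levels of 0.85, 0.75, 1.48 and 1.60 in BAM only at 7, 30, 90 and 180 days, and 1.18, 1.27, 1.53 and 1.495 with BAM+ASCs. It rose between 30 and 90 days in BAM only by 0.73 (adjusted p = 1.748e-06, limma), the interval in which Kit fell. At 30 days Kitlg was higher with BAM+ASCs by 0.53 (adjusted p = 0.00649), 1.44-fold and so under the fold threshold. Gata2, which drives mast cell genes and is also made by endothelium, rose from 7 to 30 days (0.86 in BAM only and 0.80 with BAM+ASCs) and from 30 to 90 days (0.91 and 0.89), and did not pass between grafts at any day. With BAM+ASCs its mean level was -2.14, -1.34, -0.45 and -0.88 from the first day to the last. In BAM only it was -2.80, -1.94, -1.03 and -0.85. Il33 rose with BAM+ASCs from 30 to 90 days by 0.79 (adjusted p = 1.655e-04). Its receptor Il1rl1 fell over that interval, and was well above background on 0 of 8 arrays at 90 days in both grafts. With lower values raised to the dimmest signal above background of the array, the fold was 10.5 in BAM only and 10.1 with BAM+ASCs. In BAM only at 90 days Il1rl1 reached a level of -3.47 without standing well above background, so the fold is approximate. The interval from 30 to 90 days spans the 2 scan days, and scan day and time cannot be told apart for these genes.

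**Figure D5:**
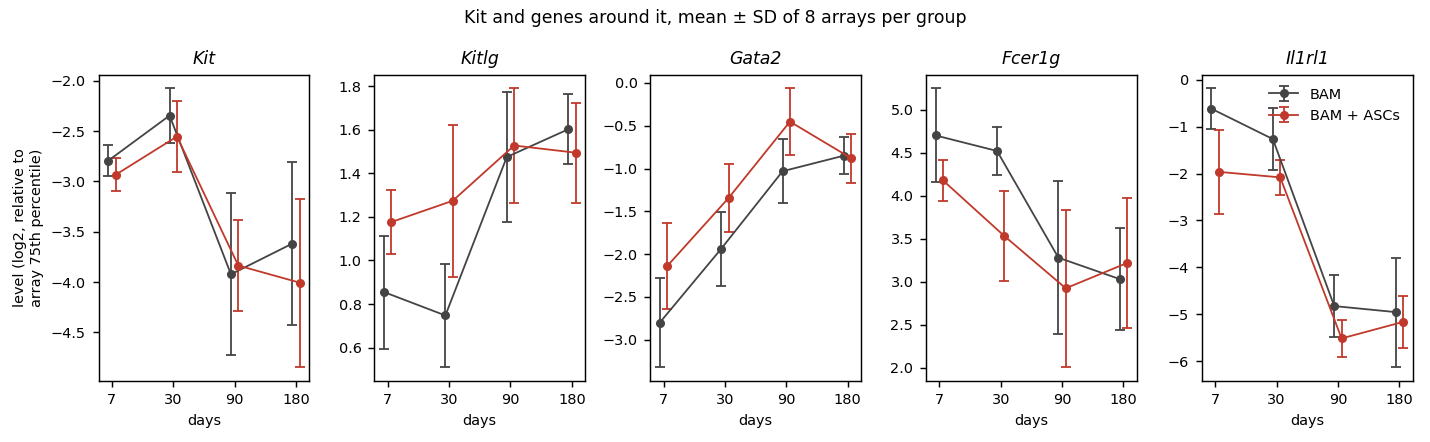
Mean level ± SD (log2 signal minus the array's 75th percentile, n = 8) of Kit, Kitlg, Gata2, Fcer1g and Il1rl1 by day after surgery, BAM only in black and BAM+ASCs in red. Kit and Il1rl1 are lower at 90 days than at 30 days in both grafts, while Kitlg in BAM only goes from 0.75 to 1.48 over the same interval.

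From bladder to bladder, none of 48 relations between the members and 6 regulators and partners passed on Pearson's r, the lowest adjusted permutation p being 0.0933. Kit and Il1rl1 had r = 0.42 and rho = 0.47 (n = 64, adjusted permutation p of 0.0125 for rho, r = 0.45 without the 2 farthest arrays), and Cpa3 and Kitlg r = 0.36 and rho = 0.39 (adjusted p of 0.0418 for rho, permutation test, r = 0.33 without the 2 farthest arrays). These passed on rank order only.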

How the data were processed

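Total RNA of reconstructed bladder wall from 64 rats, 8 for each graft and day, had been hybridized by the authors to 1-color Agilent rat arrays, 1 rat per array. RNA with an integrity number above the study's limit was used, and the 8 samples of a group are described as biological replicates. Groups follow the graft and day of the labels. The authors deposited Agilent Feature Extraction 12.0.1.1 output, whose processed signal is an intensity after background correction on a linear scale. They also deposited a series matrix of the same intensity, used here as an alternative only, since 3 columns (BAM+ASCs at 7 days, replicates 2 to 4) differ from the scanner values.

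Control spots and outlier spots were left out, the 75th percentile of each array was subtracted from log2 of the deposited signal, and spots of 1 probe were averaged. Probes were named through RefSeq accessions with the table of assembly GRCr8 (18758 of 30367 probes). A linear model of the 8 group means was fitted to the 64 arrays (limma 3.58.1, R 4.3.3). Calls needed a fold change over 1.5 and, after Benjamini-Hochberg adjustment over all probes, p below 0.01. Correlations used deviations from group means and 100000 two-sided permutations within groups, computed with scipy 1.17.1, pandas 2.3.3 and numpy 2.4.6 under Python 3.11.15, and figures were drawn with matplotlib 3.10.9. A probe counted as well above background where at least 0.5 of its spots were. Where a group had no array well above background, its lower values were raised to the dimmest signal above background of the array before a fold was taken. The fit was tested on simulated data. The precision of all values is limited by the number of arrays.

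The members and the gene lists were chosen with earlier results of these data known. All 8 members are named, Kitlg, Il33, Gata2 and Fcer1g are named whatever their values, and from each list at most the 3 genes with the largest difference among those called and well above background on all arrays of a group. Other genes of the lists named beside the members, such as those of the Mcpt family, and the values of single bladders were chosen after they were seen. Genes like the members are the 10 with the highest r to their mean, among genes well above background on at least 32 arrays. Alternatives were quantile normalization, normexp correction, the series matrix, the 75th percentile of detected probes alone, dim probes left out, outlier spots kept, separate fits of each pair of groups, the replicate number as a block, the methods' analysis of variance, an unadjusted p, a 2-fold threshold, the mean of a gene's probes and each array left out. Leaving out single arrays from the correlations was chosen after seeing the data. The labels and the paper differ in the number of operated rats and in the numbering of groups, and agree in graft and day.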

Additional observations from a re-analysis of the deposited data

Results flagged for a closer look

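Within the 64 sets of 8 bladders (8 genes in 8 groups), 12 held a bladder far from the rest of its group, its gap to the nearest other, over the group's range, exceeding Dixon's critical value. For independent sets of normally distributed values chance gives about 1 in 20. The 64 sets were not independent, since members varied together and share arrays, so the 12 cannot be set against that rate. Of the members, 4 were apart in BAM+ASCs at 30 days, replicate 8: Cma1 at -2.68 (nearest other bladder -1.02), Cpa3 at -4.32 (-3.22), Ms4a2 at -8.15 (-5.01) and Fcer1a at -6.32 (-4.03). In BAM+ASCs at 90 days, replicate 3, Cma1 was at -4.01 (-1.26), Cpa3 at -5.26 (-2.70) and Hdc at -5.89 (-4.14). Tpsb2 was at 1.01 (-3.31) in BAM+ASCs at 90 days, replicate 7, and at -2.52 (-3.02) in BAM only at 30 days, replicate 5. Hdc was at -2.07 (-2.81) in BAM+ASCs at 30 days, replicate 1, the array with 95.6% of its gene spots well above background. Fcer1a was at -2.95 (-4.08) in BAM+ASCs at 7 days, replicate 1, and at -3.44 (-4.43) in BAM only at 7 days, replicate 5.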

How the results depend on the processing

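None of the member differences changed sign while passing the threshold. At 180 days the number of members changed between grafts was 0, and 1 with an unadjusted p under 0.01 in place of the adjusted one (Fcer1a). It lay between 0 and 1 when each array was left out, and between 0 and 0 at 7, 30 and 90 days. Between successive days in BAM only the number was 1, and 2 after quantile normalization, 2 with separate fits of each pair of groups and 3 with an unadjusted p. It lay between 1 and 2 when each array was left out, Fcer1a passing from 90 to 180 days without BAM only replicate 7 of 90 days or replicates 6 or 8 of 180 days. With BAM+ASCs it was 1, and 0 after normexp correction, 0 after quantile normalization and 2 with an unadjusted p. It lay between 1 and 2 when each array was left out, Tpsab1 passing without replicate 8 of 30 days (-1.38, adjusted p = 0.00579, limma). The number of members whose difference between grafts changed between days was 0, and 1 after quantile normalization and 1 with an unadjusted p, and between 0 and 0 when each array was left out. Of the 28 correlations, 15 passed over all arrays, 9 on the arrays of 90 and 180 days, 19 without BAM+ASCs at 90 days replicate 7 (Tpsb2 then passing with Cpa3, Cma1 and Fcer1a, and Tpsab1 with Hdc) and 14 without the 2 arrays on which most members were low. The cause was not tested. The call of Kit from 7 to 180 days in BAM only was lost without replicates 3, 6 or 7 of 7 days or 1, 6 or 8 of 180 days, and that of Tpsab1 without replicates 2 or 5 of 7 days or 7 of 180 days.

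With the replicate number as a block the counts were 0, 0, 0 and 0 between grafts, 1 and 1 between successive days and 0 for the difference between days, as without it. Deviations of same-numbered bladders correlated over 0.1 in 2, 5, 3 and 0 of 8 pairs at 7, 30, 90 and 180 days, and 0, 3, 2 and 0 bladders correlated best with their own number. Since not every pair did so at any day, the numbers were not taken to pair the bladders.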
